A study of Mus musculus with 8 samples.

Results

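Sound moves the hair bundle of a cochlear hair cell and opens ion channels at the tips of its stereocilia. The 10 genes described here encode the proteins known to form or hold that transduction machinery, namely Tmc1, Tmc2, Tmie, Lhfpl5, Cib2, Pcdh15, Cdh23, Myo7a, Ush1c and Loxhd1. They were taken by symbol and function, with earlier results of these data known, and all 10 were found among the 47628 named entries of the count tables. A mean normalized count over 10 was required for testing, which 9 of the 10 members and 19366 entries in all reached, while Tmc2 did not.

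RNA seq was performed on whole cochleae of 8 untreated mice. The 4 Opa1+/- mice (labelled Het_2, Het_7, Het_484 and Het_491) carry on 1 allele the delTTAG knock-in mutation of Opa1, a dynamin-related GTPase of the inner mitochondrial membrane that drives fusion and keeps cristae in shape. The 4 WT mice (labelled WT_4, WT_5, WT_6 and WT_8) are their littermate controls, and both groups share a mixed C57BL/6J and 129 Sv/Pas background and, by the methods of the study, the age of p21. The mutation is present in every cell, and no homozygote could be studied, since homozygous embryos die. Neither the sex of each mouse nor which of the 2 named RNA extraction kits was used for it is given in the labels, and nothing in them says whether the animal numbers mark litters or days. The question put to the data is whether the transcripts of the transduction machinery differ between these genotypes.

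In a hair cell, each shorter stereocilium is tied to its taller neighbour by a tip link. Cadherin 23 forms the upper part of this filament and protocadherin 15 the lower part. The upper end is anchored by harmonin (Ush1c) and myosin 7a (Myo7a), and the lower end meets the channel complex, in which TMC1 and TMC2 form the pore and TMIE, LHFPL5 and CIB2 are accessory subunits. In the mouse cochlea TMC2 is used mainly by immature hair cells and TMC1 is used by mature ones. LOXHD1, a stereociliary protein made of PLAT repeats, is needed for transduction in mature hair cells. Loss of any of these genes other than Tmc2 causes deafness in mice, and most are deafness genes in humans as well. Hair cells are a small minority of the cells in a cochlea, so in bulk RNA fewer hair cells and less RNA per hair cell cannot be told apart.

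Both tip link genes lie on chromosome 10, Cdh23 at chr10:60302748-60696490 on the minus strand and Pcdh15 at chr10:73099342-74649737 on the plus strand of GRCm38. Their promoters are shown because both genes encode parts of 1 filament and their transcript levels are compared below. Each run is the 250 bases before the start of the RefSeq gene model (GRCm38.p6), read 5′ to 3′ on the strand of the gene, with matches to the E-box letters CANNTG, which read the same on both strands, in capitals. The region is chr10:60696491-60696740 for Cdh23 and chr10:73821617-73821866 for Pcdh15. The second lies inside the longer Pcdh15 gene of GENCODE, which has starts further upstream.
Cdh23 promoter: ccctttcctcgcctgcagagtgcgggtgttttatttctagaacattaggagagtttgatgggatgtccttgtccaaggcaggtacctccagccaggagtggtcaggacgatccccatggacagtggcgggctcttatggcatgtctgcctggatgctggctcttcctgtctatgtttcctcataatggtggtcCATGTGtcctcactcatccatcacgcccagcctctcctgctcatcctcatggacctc
Pcdh15 promoter: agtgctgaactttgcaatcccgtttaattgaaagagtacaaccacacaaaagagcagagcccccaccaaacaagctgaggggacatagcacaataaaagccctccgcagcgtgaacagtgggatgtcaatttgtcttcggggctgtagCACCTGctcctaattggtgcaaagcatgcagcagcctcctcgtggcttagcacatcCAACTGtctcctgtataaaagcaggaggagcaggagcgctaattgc

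The Cdh23 window holds 1 E-box match and the Pcdh15 window 2, and 66.2% of the 32851 mouse promoters of the same length hold at least 1. The letters TATAAA, searched on both strands, were found in the Pcdh15 window and not in that of Cdh23, against 12.4% of all promoters. Their GC content was 54.4% for Cdh23 and 50.4% for Pcdh15, on either side of the median of 52.4% over all promoters. These matches describe letters in the windows and no binding was measured.

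The libraries held 15978051 to 20828030 counts on named genes. Levels are given as CPM (the usual scaling of counts by library total, here after TMM scaling), and ± marks the SD over 4 mice. Opa1 checked the labels. It stood at 119.8 ± 6.57 CPM in WT and 65.5 ± 4.28 CPM in Opa1+/-, a log2 fold change of -0.87 (SE 0.0684, 95% interval -1.03 to -0.72, edgeR quasi-likelihood test, adjusted p = 0.00526), and its groups did not overlap. Hair cells were present in every library, since all 14 hair cell reference genes, none of them a member, were tested and none was at 0. Other tissue was present too. The 5 skeletal muscle genes summed to 154.6 to 1416 CPM in WT and 10.4 to 789.4 CPM in Opa1+/-, the 5 neutrophil genes to 349.4 to 1164 and 368.2 to 991.8 CPM, and the 5 erythroid genes to 4330 to 12004 and 8645 to 13766 CPM. None of these lists had a marker at 0 in any library. WT mouse 6 stood apart with the most muscle RNA and WT mouse 4 with the most neutrophil RNA.

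Levels of different genes were compared only per kilobase of exon. Cib2, the calcium- and integrin-binding subunit, led the members with 23.1 ± 3.78 CPM per kilobase (SD, n = 8), above 88.4% of the 18651 tested genes with an annotated length. Ush1c followed at 5.84 ± 1.23 CPM per kilobase, and these were the only members above 4.30 CPM per kilobase, the median of those genes. Tmie at 3.48, Lhfpl5 at 3.10 and Myo7a at 2.99 CPM per kilobase formed a middle tier whose neighbours overlapped. Tmie exceeded Lhfpl5 in 7 of the 8 libraries, while Lhfpl5 exceeded Myo7a in 4 of 8.

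A lower tier began with Tmc1 at 0.939 CPM per kilobase and Loxhd1 at 0.857. Their ranges overlapped too, with Tmc1 the higher in 6 of 8 libraries. Cdh23 at 0.378, Pcdh15 at 0.236 and Tmc2 at 0.0912 CPM per kilobase ended the order. The ranges of Cdh23 and Pcdh15 overlapped, as did those of Pcdh15 and Tmc2, although within each library Cdh23 was above Pcdh15 and Pcdh15 above Tmc2 in 8 of 8. Between Cib2 and Ush1c, Ush1c and Tmie, Myo7a and Tmc1, and Loxhd1 and Cdh23 the ranges did not overlap. Exon length was the union over annotated transcripts, 23.8 kilobases for Pcdh15 with its 41 transcripts and 1.43 kilobases for Cib2 with its single one, so genes with many alternative exons are placed low by this measure.

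**Figure D1:**
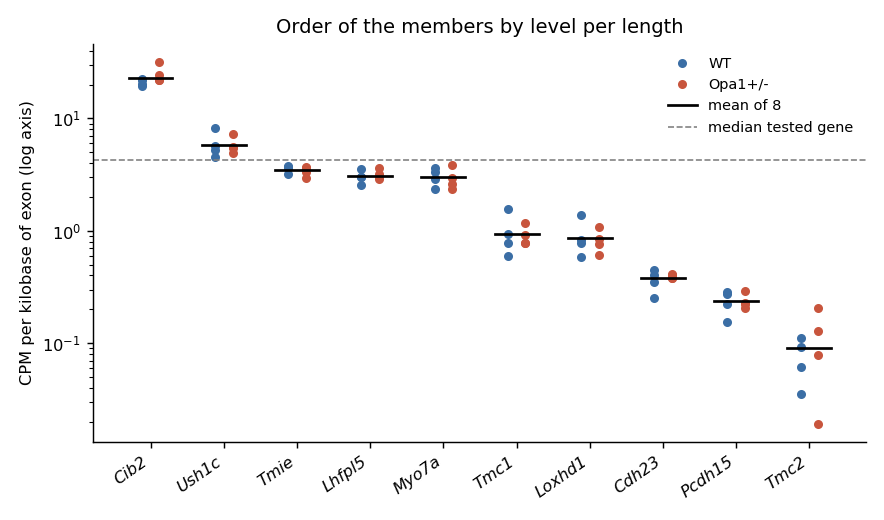
Level of each member in CPM per kilobase of exon on a log axis, 1 point per mouse (WT blue, Opa1+/- red), with the mean of the 8 libraries as a black bar and the median tested gene (4.30) as a dashed line. Cib2 and Ush1c have means above the dashed line, and the points of both genotypes overlap for every member.

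The pore subunits came first in the comparison of genotypes. Values in each library are given for WT mice 4, 5, 6 and 8 and then for Opa1+/- mice Het_2, Het_7, Het_484 and Het_491. Tmc1 (chr19:20783458-20954202, minus strand), the pore subunit of mature hair cells, was at 4.31, 5.56, 11.2 and 6.74 CPM in WT and at 5.61, 6.54, 5.64 and 8.42 CPM in Opa1+/-. The WT mice held both the lowest and the highest library, with the Opa1+/- mice between them. The log2 fold change of Opa1+/- over WT was -0.08 (SE 0.276, 95% interval -0.70 to 0.54, adjusted p = 0.964), an interval of -38.5% to 45.2%. Its direction rested on WT mouse 6, without which it was 0.24.

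Tmc2 (chr2:130195194-130264445, plus strand), the pore subunit of immature hair cells, was near the floor of detection. Its counts were 2, 4, 6 and 6 in WT and 7, 13, 1 and 4 in Opa1+/-. Summed over each group these are 18 and 25 counts, or 0.240 and 0.364 CPM, a ratio of 1.52 with an exact counting interval of 0.794 to 2.95 that leaves out the spread between mice. In an edgeR fit without the count minimum, which includes the spread between mice, the log2 fold change of Tmc2 was 0.56 (SE 0.572, adjusted p = 0.790). At this depth a difference within these errors was not detectable. Per kilobase Tmc1 exceeded Tmc2 by 10.01 times over all libraries (95% counting interval 7.37 to 13.9), by 12.7 times in WT (7.98 to 21.7) and by 8.03 times in Opa1+/- (5.37 to 12.5). These intervals overlap between genotypes. Averaged over libraries the order of the genotypes was the opposite, 13.4 ± 2.83 times in WT and 16.5 ± 16.8 times in Opa1+/-, with single libraries from 4.47 in Opa1+/- mouse Het_7 to 40.7 in Opa1+/- mouse Het_484, where Tmc2 had 1 count. Tmc1 was above Tmc2 in each of the 8 libraries.

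Tmie (chr9:110865711-110880113, minus strand), the transmembrane inner ear protein that couples the channel to the tip link, was the steadiest member. It was at 11.3, 9.88, 11.8 and 11.4 CPM in WT and at 11.3, 11.2, 10.2 and 9.11 CPM in Opa1+/-. The groups overlapped, and the SD within groups was 8.75% of the mean where counting alone gives 7.25%. Opa1+/- differed from WT by a log2 fold change of -0.08 (SE 0.104, adjusted p = 0.905), with an interval of -19.5% to 11.1%, the narrowest of the members. Lhfpl5 (chr17:28575641-28585679, plus strand), the tetraspan subunit that binds protocadherin 15, was at 8.44, 7.18, 6.09 and 7.14 CPM in WT and at 7.14, 8.66, 6.88 and 7.66 CPM in Opa1+/-. Its values were interleaved, its log2 fold change was 0.07 (SE 0.130, adjusted p = 0.933), and its interval ran from -14.0% to 28.7%.

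Cib2 (chr9:54544794-54560218, minus strand), the most abundant member per kilobase, also had the largest absolute log2 fold change of the 9 tested members. It was at 27.7, 31.8, 32.3 and 29.3 CPM in WT and at 31.7, 31.7, 34.8 and 45.4 CPM in Opa1+/-. Opa1+/- mice Het_484 and Het_491 were above every WT mouse, and Het_2 and Het_7 were within the WT range. The log2 fold change was 0.25 (SE 0.117, 95% interval -0.02 to 0.51), 18.6% higher in Opa1+/-, with an unadjusted p of 0.0641 and an adjusted p of 0.755 in the edgeR fit, so the difference did not pass the test. This log2 fold change was 0.11 without Opa1+/- mouse Het_491 and 0.07 without both mice with 3-digit numbers, animals whose numbers the labels do not explain. Of all tested genes 83.5% had a smaller absolute log2 fold change.

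The tip link cadherins were measured at 65 to 153 counts per library. Cdh23 was at 4.31, 6.84, 5.97 and 7.53 CPM in WT and at 6.84, 6.95, 6.38 and 6.46 CPM in Opa1+/-. The 4 Opa1+/- values lay within the WT range, with a log2 fold change of 0.11 (SE 0.165, 95% interval -0.26 to 0.48, adjusted p = 0.920) that became -0.03 without WT mouse 4. C57BL/6J mice carry a Cdh23 variant that predisposes to age-related hearing loss, and the count tables do not separate alleles. Pcdh15 was at 3.68, 6.49, 5.32 and 6.84 CPM in WT and at 4.90, 5.28, 5.45 and 6.90 CPM in Opa1+/-. Its log2 fold change was 0.01 (SE 0.202, 95% interval -0.45 to 0.46, adjusted p = 0.996) and became -0.15 without WT mouse 4, -0.02 without WT mouse 6 and -0.10 without Opa1+/- mouse Het_491. WT mouse 4 was the lowest library for both cadherins.

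The ratio of both cadherins within a library does not depend on how the library is scaled. Per kilobase, Cdh23 exceeded Pcdh15 by 1.56 ± 0.0679 times in WT and by 1.69 ± 0.284 times in Opa1+/-. The ratio ran from 1.48 to 1.64 in WT and from 1.31 to 1.96 in Opa1+/-, so the Opa1+/- range enclosed the WT range. In single libraries the counting intervals were wide, for example 0.993 to 1.74 in Opa1+/- mouse Het_491, which had the lowest ratio, and 1.47 to 2.63 in Opa1+/- mouse Het_2, which had the highest. Summed over libraries the ratio was 1.61 (95% counting interval 1.46 to 1.77). The counts behind it were 927 for Cdh23 and 810 for Pcdh15. They were divided by exon unions of 16.9 kilobases over 16 transcripts and 23.8 kilobases over 41 transcripts. The size of the ratio therefore depends on these lengths, which the counting intervals do not cover.

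The anchor of the upper tip link was measured more deeply. Myo7a (chr7:98051060-98119524, minus strand), the motor protein of this anchor, was at 24.9, 20.2, 30.8 and 28.6 CPM in WT and at 32.8, 20.0, 25.1 and 22.5 CPM in Opa1+/-. Both the highest and the lowest library were Opa1+/-, with a log2 fold change of -0.06 (SE 0.169, 95% interval -0.44 to 0.32, adjusted p = 0.959). Its direction turned without WT mouse 6 or without Opa1+/- mouse Het_7, at 0.03 and 0.04. Ush1c (chr7:46195350-46238503, minus strand), which encodes the scaffold protein harmonin, was at 17.5, 21.9, 31.5 and 20.2 CPM in WT and at 27.7, 20.8, 18.8 and 21.5 CPM in Opa1+/-. The groups overlapped, and the log2 fold change of -0.04 (SE 0.184, 95% interval -0.45 to 0.38, adjusted p = 0.977) became 0.16 without WT mouse 6 and 0.04 without Opa1+/- mouse Het_484.

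Loxhd1 (chr18:77281958-77442930, plus strand) was at 5.16, 7.43, 12.2 and 6.99 CPM in WT and at 9.56, 7.45, 5.39 and 6.84 CPM in Opa1+/-. Like Tmc1, it had its lowest value in WT mouse 4 and its highest in WT mouse 6. Its log2 fold change was -0.12 (SE 0.262, 95% interval -0.70 to 0.47, adjusted p = 0.949), and it became 0.16 without WT mouse 6 and 0.0044 without Opa1+/- mouse Het_484. These 2 genes varied most among the tested members, with SDs within groups of 33.6% of the mean for Tmc1 and 31.5% for Loxhd1, where counting gives 9.45% and 8.89%.

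**Figure D2:**
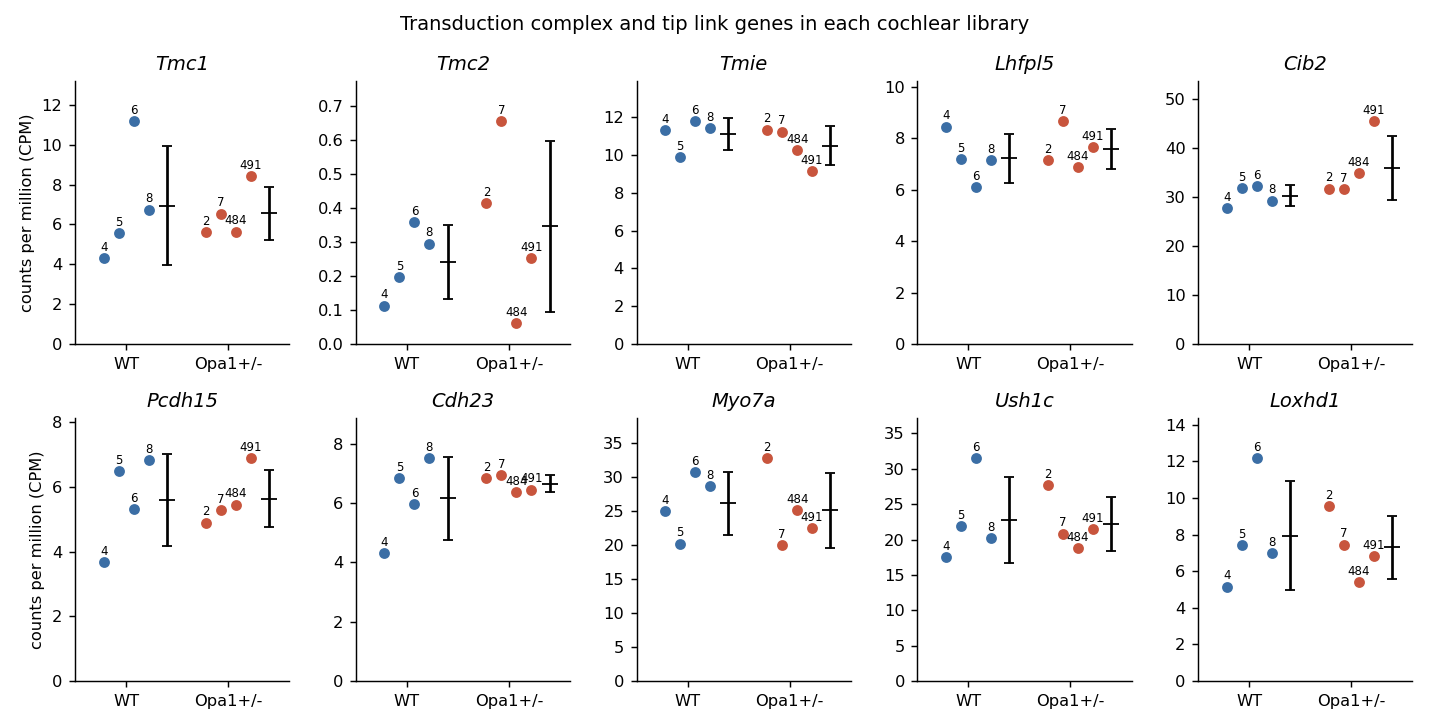
Level of each member in CPM (linear axes from 0), 1 point per mouse with its animal number, WT in blue and Opa1+/- in red, and black bars for the mean ± SD of 4 mice. The groups overlap in all 10 panels, and WT mouse 6 is the highest library for Tmc1, Tmie, Ush1c and Loxhd1.

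Of the 9 tested members 0 were called in the edgeR fit and 0 by DESeq2, at an adjusted p under 0.05. The share called among all 19366 tested genes was 0.0258% with edgeR and 0.129% with DESeq2, so at these rates no call among 9 genes would be usual. At an unadjusted edgeR p under 0.05 there were also 0 members, against 6.7% of all tested genes. The groups of mice did not overlap for 0 of the 9, against 4.29% of all tested genes. In direction 4 members were higher in Opa1+/- and 5 lower. Their median log2 fold change was -0.04, beside -0.0031 over all tested genes, and their median absolute log2 fold change was 0.08, beside 0.10. With single mice left out, the split ran from 2 members higher and 7 lower without WT mouse 4 (median -0.08) to 7 higher and 2 lower without WT mouse 6 (median 0.09). Across the members the 95% intervals reached -38.6% at one end (Loxhd1) and 45.2% at the other (Tmc1), so changes smaller than these cannot be told from none for the most variable members. Opa1, at -45.3%, lay outside all of these intervals.

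**Figure D3:**
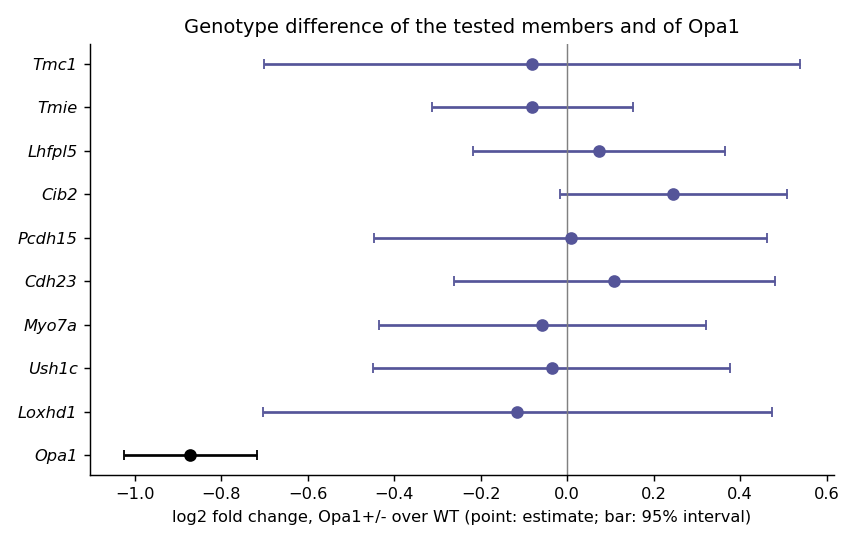
Log2 fold change of Opa1+/- over WT for the 9 tested members and for Opa1, with points for the estimate and bars for the 95% interval from the edgeR fit. Every member's bar crosses 0, Tmie and Cib2 have the shortest bars among the members, and Opa1 alone lies clear of 0 at -0.87.

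Other genes of transduction and of the hair bundle gave the same count. Of 14 such genes 13 were tested, 8 were higher and 5 lower in Opa1+/-, and 0 were called. The lowest p was that of Pkhd1l1, which encodes a stereocilia coat protein, at 3.53 ± 1.67 CPM in WT and 4.63 ± 1.25 CPM in Opa1+/- (log2 fold change 0.39, SE 0.336, adjusted p = 0.838). Grxcr2, a gene of stereocilia shape, was at 2.61 ± 0.778 and 2.18 ± 0.360 CPM (log2 fold change -0.27, adjusted p = 0.852). Whrn, the scaffold whirlin, was at 24.5 ± 7.29 and 21.4 ± 3.37 CPM (-0.19, adjusted p = 0.870). Cib3, the paralog of Cib2 used in vestibular hair cells, was at 3.83 ± 0.821 and 3.23 ± 1.10 CPM (-0.24, adjusted p = 0.878), and Clrn1, the Usher gene of clarin 1, at 9.44 ± 1.28 and 8.86 ± 0.705 CPM (-0.09, adjusted p = 0.906). The list's median log2 fold change was 0.03.

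Relatives of the channel subunits, the other TMC, LHFPL and CIB genes, are expressed in many cell types. Of 13 such genes 12 were tested, 7 were higher and 5 lower, 0 were called, and the median log2 fold change was 0.04. Cib4 was below the minimum, with 0 to 3 counts per library. Cib1, the broadly expressed paralog of Cib2, had the lowest p, at 17.9 ± 1.30 CPM in WT and 20.1 ± 1.73 CPM in Opa1+/- (log2 difference 0.17, SE 0.0861, adjusted p = 0.756). Tmc6 at 16.9 ± 1.38 and 18.6 ± 1.04 CPM and Tmc8 at 1.56 ± 1.01 and 2.38 ± 0.256 CPM, a pair known from skin and lymphocytes, had log2 fold changes of 0.14 and 0.61 (adjusted p = 0.769 and 0.790). Lhfpl3 was at 40.4 ± 6.91 and 35.7 ± 3.13 CPM, and Lhfpl2 at 48.2 ± 1.23 and 50.9 ± 1.89 CPM (adjusted p = 0.792 for both). Tmc3, chosen after its values were seen, ranged from 2.87 CPM in WT mouse 6 to 28.6 CPM in Opa1+/- mouse Het_7 and was also low, at 3.04 CPM, in Opa1+/- mouse Het_491.

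The amount of hair cell RNA in each library was gauged by the summed CPM of the 14 reference genes, among them Otof, Pou4f3, Slc26a5, Ocm, Myo15 and Ptprq. The sum was 146.4, 173.5, 253.4 and 192.7 CPM in WT mice 4, 5, 6 and 8 and 171.9, 185.1, 155.2 and 202.9 CPM in Opa1+/- mice Het_2, Het_7, Het_484 and Het_491. WT mice again held the extremes. The Opa1+/- mean was 0.934 times the WT mean (exact two-sided permutation test over the libraries, p = 0.686) and 1.05 times without WT mouse 6. Among the reference genes 4 were higher and 10 lower in Opa1+/-, with a median log2 fold change of -0.08 and 0 called. Those of lowest p were the nicotinic receptor subunit Chrna9 (log2 fold change -0.56, adjusted p = 0.783), the transcription factor Lhx3 (-0.53, adjusted p = 0.827), Ptprq (-0.34, adjusted p = 0.845), Myo15 (-0.20, adjusted p = 0.862) and the glutamate transporter Slc17a8 (-0.17, adjusted p = 0.872).

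The members split by how closely they followed this sum over the 8 libraries. Correlations are on the log2 scale, are descriptions without a test, and join libraries that share their scaling and tissue. Tmc1 followed the sum most closely, with Pearson's r of 0.97 and Spearman's rho of 0.90, and 0.87 for r without the farthest libraries, WT mice 4 and 6. Loxhd1 (r 0.80, rho 0.55) and Ush1c (r 0.74, rho 0.60) followed it with those libraries and little without them, at 0.24 and 0.04. Pcdh15 stood at 0.45, Cdh23 at 0.34, Cib2 at 0.30, Myo7a at 0.25 and Tmie at 0.14, and Lhfpl5 was the only member with a negative value over all 8 libraries, -0.54. Without the same mice the order differed, with Pcdh15 at 0.61, Lhfpl5 at 0.50, Cdh23 at 0.36, Cib2 at 0.33, Tmie at -0.15 and Myo7a at -0.16, so beyond Tmc1 the split rested on those libraries.

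Each member was then divided by the reference sum. Tmc1 was at 35.1 ± 6.39 CPM per 1000 CPM of reference in WT and 36.4 ± 3.71 in Opa1+/-, and its coefficient of variation over the 8 libraries was 13.7% against 31.8% before division. The coefficient was also smaller after division for Loxhd1 (18.9% from 30.0%) and Ush1c (14.6% from 21.1%). It was about the same for Pcdh15 (18.8% from 19.5%). It was larger for the other 5 tested members, Tmie (17.7% from 8.60%), Lhfpl5 (23.1% from 11.3%), Myo7a (22.1% from 18.5%), Cdh23 (17.8% from 15.1%) and Cib2 (18.1% from 16.4%). Cib2 was at 162.9 ± 28.8 in WT and 200.9 ± 27.4 in Opa1+/- on this scale, with the groups still overlapping. With the log2 reference sum as a covariate in the edgeR fit 0 members were called, and Cib2 had a log2 fold change of 0.27 with an unadjusted p of 0.0351 and an adjusted p of 0.676.

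**Figure D4:**
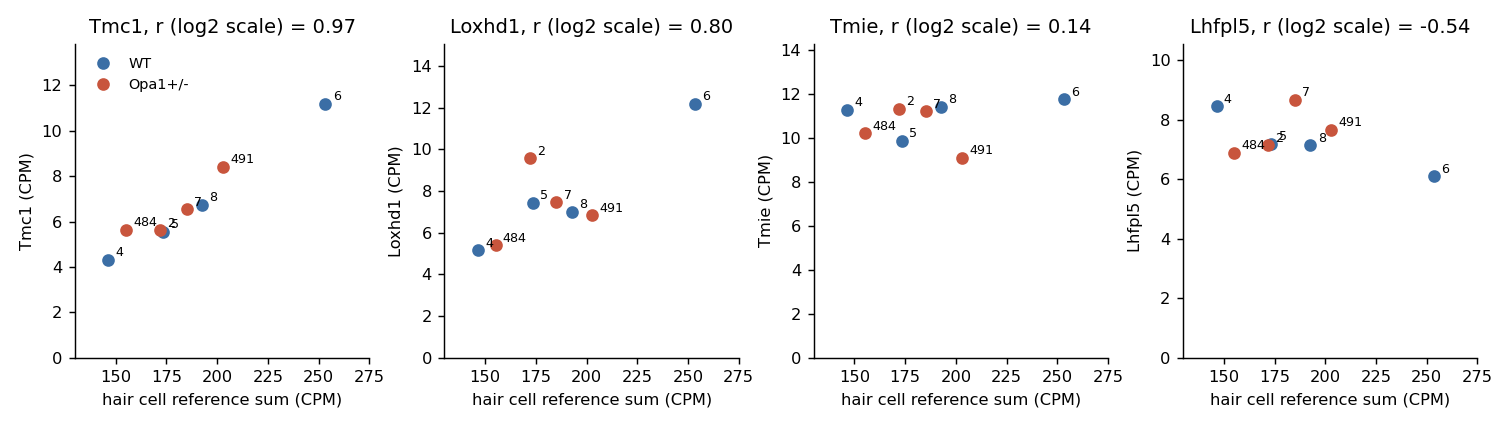
Level of 4 members in CPM against the summed CPM of 14 hair cell reference genes, 1 point per mouse with its animal number (WT blue, Opa1+/- red), with Pearson's r of the log2 values above each panel. Tmc1 is higher where the sum is higher, Loxhd1 mainly in WT mouse 6, and Tmie and Lhfpl5 have no such pattern.

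Lists of other cells moved with some members as well. The 6 supporting and non-sensory epithelial genes, such as Gjb6 and Tecta, summed to 325.8 to 572.7 CPM in WT and 395.9 to 433.3 CPM in Opa1+/-, highest in WT mouse 6. Their sum had an r of 0.88 with Loxhd1, 0.87 with Tmc1 and 0.85 with Ush1c, and of -0.77 with Lhfpl5. Without WT mice 4 and 6 these became 0.62, 0.15, 0.44 and -0.04. The 5 melanocyte genes, which summed to 142.3 to 314.6 CPM in WT and 179.6 to 286.9 CPM in Opa1+/-, had an r of 0.75 with Tmc1 and -0.78 with Lhfpl5, or 0.70 and -0.45 without WT mouse 4 and Opa1+/- mouse Het_7. The 4 vestibular and otolith genes, of which 3 were tested, summed to 64.2 to 76.7 CPM and 63.9 to 73.2 CPM and had an r of 0.78 with Loxhd1 and 0.69 with Ush1c. Most of this sum was Anxa4, at a mean of 55.6 CPM over all libraries, against 11.6 CPM for Otop1 and 2.59 CPM for Otol1. Likewise most of the supporting sum was Gjb6 (mean 300.9 CPM) and most of the melanocyte sum was Dct (mean 209.6 CPM). The r values of these sums therefore describe mainly those genes. The muscle sum had an r of 0.79 with Tmie, which fell to 0.17 without WT mouse 6 and Opa1+/- mouse Het_491, and the bone sum, 1036 to 1210 CPM in WT and 811.8 to 1246 CPM in Opa1+/-, had an r of 0.72 with Myo7a. Cib2 had an r of -0.68 with the muscle sum and -0.57 with the bone sum, which became 0.29 without WT mouse 6 and Opa1+/- mouse Het_491 and 0.40 without Opa1+/- mice Het_7 and Het_491. Opa1+/- mouse Het_491, the highest library for Cib2, had the lowest muscle sum (10.4 CPM), the lowest bone sum (811.8 CPM) and the highest erythroid sum (13766 CPM). The neutrophil sum had an r of -0.68 with Loxhd1, or -0.64 without WT mouse 4 and Opa1+/- mouse Het_491. Neurons, Schwann cells and macrophages made up the remaining lists, and in all 10 lists of other cells 0 genes were called between genotypes. In direction, 5 of 5 erythroid genes and 5 of 5 Schwann cell genes were higher in Opa1+/-, and 5 of 5 muscle genes lower. Their sums were 1.47, 1.14 and 0.686 times those of WT (exact two-sided permutation tests, p = 0.200, 0.257 and 0.714). The part of these cells in the levels of the members was not tested.

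Among themselves the 9 tested members did not vary as 1 block. Of 36 pairs 22 had a positive r, 7 were above 0.5 and 6 below -0.5, and the median r was 0.14. Ush1c and Loxhd1 were the closest pair, with r 0.98 and rho 0.88, and 0.93 without WT mouse 6 and Opa1+/- mouse Het_2, in which both were highest. The cadherins Pcdh15 and Cdh23 came next with r 0.80 but rho 0.31, and r was 0.55 without WT mouse 4 and Opa1+/- mouse Het_491. Tmc1 and Loxhd1 had r 0.70, which became -0.14 without WT mice 4 and 6. At the other end Tmie and Cib2 had r -0.80 and rho -0.48 (-0.54 without WT mouse 5 and Opa1+/- mouse Het_491), and all 3 of Ush1c, Loxhd1 and Myo7a had a negative r with Lhfpl5, -0.66, -0.59 and -0.59.

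**Figure D5:**
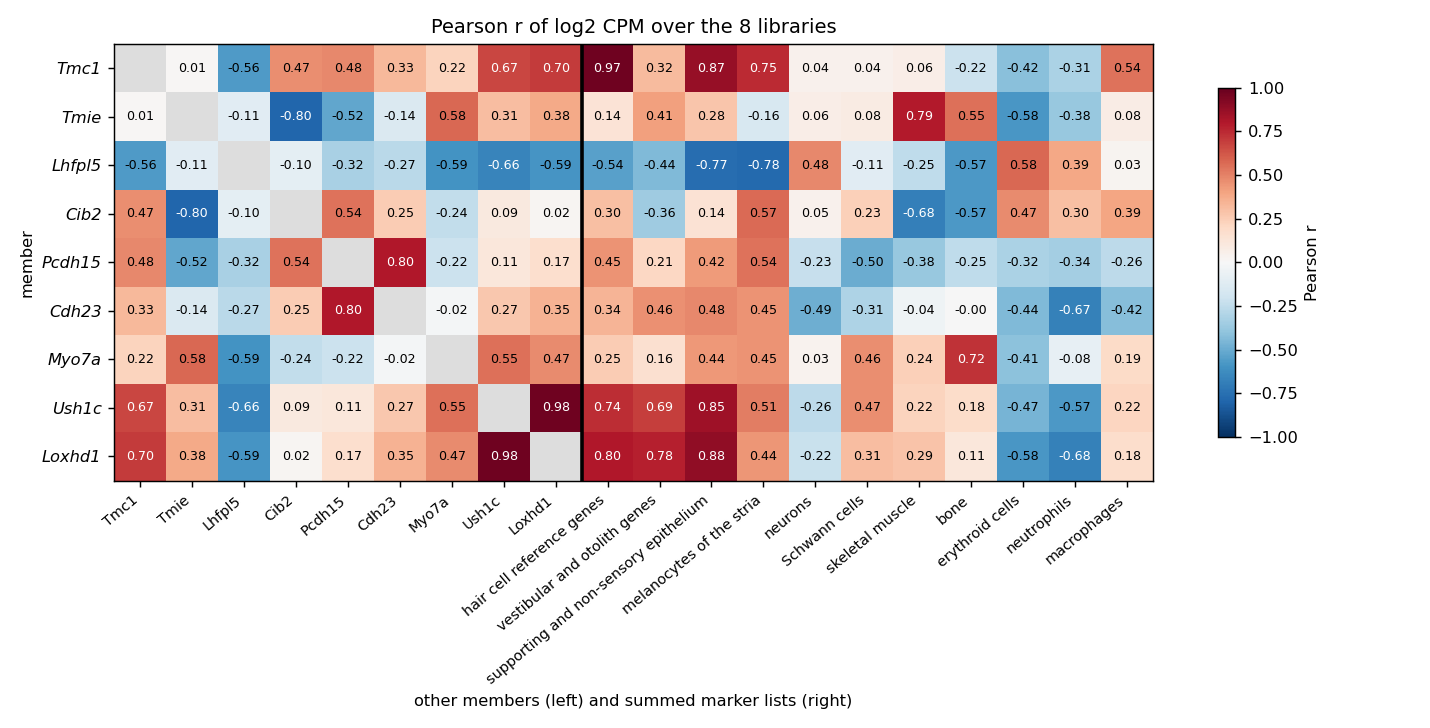
Pearson's r of log2 CPM over the 8 libraries between the 9 tested members (left of the line) and between each member and the summed CPM of 11 marker lists (right), red for positive and blue for negative. Tmc1, Ush1c and Loxhd1 share high values with hair cell and supporting cell genes, and the row of Lhfpl5 is mostly blue.

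Outside the members, the genes most like their mean standardised log2 CPM over the 8 libraries were Sfrp1 (r 0.96, rho 0.98), a secreted Wnt inhibitor, Mtmr11, Lrp3, the nuclear receptor Esrra, B4gat1, Bloc1s4, Fam171a1, Mllt4, which encodes the junction protein afadin, the Wnt receptor Fzd1 and the adrenergic receptor Adra1b, with an r of 0.94 to 0.96 among 19357 genes. Over all of these genes 4.82% had an r above 0.7 and the median lay near 0. The genes named are the top of a ranking over only 8 libraries, and whether unrelated genes would give such values was not tested. Without WT mouse 4 and Opa1+/- mouse Het_484 the r of the named genes ran from 0.79 (Bloc1s4 and Fzd1) to 0.99 (Adra1b). With all 8 libraries, 4 of the 14 hair cell reference genes were above 0.7, and the median of the 14 was 0.63. Otof, the otoferlin of the inner hair cell synapse, was the nearest of them at rank 20 (r 0.92), followed by Chrna10 at rank 204 (r 0.84) and Myo15 at rank 610 (r 0.75). The outer hair cell genes Slc26a5 (r 0.03) and Ocm (r -0.07) showed none of this likeness. These values depended on WT mouse 4 and Opa1+/- mouse Het_484. Without them r was 0.75 for Otof, 0.63 for Chrna10, 0.65 for Myo15, -0.74 for Slc26a5 and -0.40 for Ocm. It fell from 0.59 to -0.01 for Slc17a8, and rose from 0.44 to 0.92 for Chrna9 and from 0.09 to 0.82 for Lhx3.

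Reads from neighbouring genes could enter the counts of 3 members, since the use of strand in counting is not given in the sources used here. Cib2 shares 227 exon bases, 15.8% of its own, with Sh2d7 on the opposite strand. Sh2d7 was counted 1 to 7 times per library, far below the 489 to 718 counts of Cib2. Tmie shares 244 exon bases, 7.89% of its own, with Als2cl on the opposite strand, which was at 16.4 ± 2.35 CPM in WT and 16.3 ± 1.82 CPM in Opa1+/-. Ush1c shares 120 exon bases, 3.12% of its own, with the gene model Gm9860 on the opposite strand, whose counts were not used here. No exon of the other 7 members overlaps an exon of another annotated gene. Some gene models do lie within their spans without sharing exon bases. On the opposite strand these are Vsir and Gm17455 in Cdh23, AC102790.1 in Tmc1, and Gm15398, Gm19168, Gm37438 and Gm6407 in Pcdh15. On the same strand they are Gm15397, Gm47098 and Gm5778, all in Pcdh15.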

How the data were processed

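RNA seq of whole cochleae from 4 WT and 4 Opa1+/- mice was read from 1 table per mouse. The authors deposited raw, unfiltered counts as whole numbers for each gene symbol. Per the labels and the methods of the study, CORALL libraries were sequenced as read pairs, checked with FastQC and mapped to GRCm38 (mm10) with STAR, and molecular identifiers were used. The counting program, its annotation and its use of strand are not given in the sources used here. The 15 entries without a symbol held 0.112% to 0.124% of the counts and were left out.

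Groups were taken from the genotype labels. The fit used all 8 libraries, TMM factors over 47628 named entries and edgeR 4.0.16 (quasi-likelihood test) in R 4.3.3, for genes with a mean count over 10 after DESeq2 size factors. Benjamini-Hochberg adjustment ran over all 19366 genes, with a threshold of 0.05, and SE is the absolute log2 fold change over the square root of F. This edgeR fit was tested on simulated counts with known changes before use. With 15978051 to 20828030 counts per library, a member near 100 counts carries a counting error near 10%, and intervals on counts cover counting error only. Nothing in the labels says that the mice of a group come from separate litters. Within each genotype the tables were compared in pairs, and every pair differed by more than sampling noise.

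Positions and exon lengths came from GENCODE vM21 and promoters from RefSeq, in which 8 of the 10 members were found. Named genes are the 10 members, Opa1, the 10 genes most like the members, up to 5 genes of lowest p in each list and genes sharing exons with a member or lying within one. Tmc3 and the reference genes Otof, Chrna10, Slc26a5 and Ocm, with their likeness to the members, were chosen after their values were seen. Members and lists were chosen with earlier results of these data known. The alternatives were other scalings and filters, DESeq2 1.42.0, voom in limma 3.58.1, a hair cell covariate, a threshold of 0.1 and leaving out mice.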

Additional observations from a re-analysis of the deposited data

Results flagged for a closer look

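In 50 sets of 4 mice of 1 genotype, made up of the 10 members, Opa1 and 14 summed lists in either genotype, the highest or lowest mouse was tested for standing apart from the other 3. Chance gives about 1 in 20 such results, and 2 were found, neither of them in a member. The summed level of 5 skeletal muscle genes was 1416 CPM in WT mouse 6, where WT mice 4, 5 and 8 had 154.6 to 290.0 CPM, a gap of 0.893 of the range. The summed level of 5 neutrophil genes was 1164 CPM in WT mouse 4, where WT mice 5, 6 and 8 had 349.4 to 440.9 CPM, a gap of 0.888 of the range. These are the libraries with the highest and the lowest Tmc1 and Loxhd1, and whether the admixed tissue plays a part in those levels was not tested.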

How the results depend on the processing

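The count of called members was 0 under all 18 alternatives, and the lowest adjusted p of any of them was 0.533 (Cib2 with voom). The number of genes called was 5 and became 12 without the filter, 25 with DESeq2 (22 higher, 3 lower), 10 with voom, 2 with the hair cell covariate, 11 at a threshold of 0.1, 0 without both Opa1+/- mice with 3-digit numbers, and 0 to 10 when single mice were left out (0 without WT mouse 8 or without Opa1+/- mouse Het_2, and 10 without WT mouse 4). The log2 fold change of Opa1 stayed between -0.92 and -0.84 throughout, with an adjusted p of 0.0574, 0.0588 and 0.321 without WT mouse 8, without Opa1+/- mouse Het_2 and without both mice with 3-digit numbers. The log2 fold changes of Lhfpl5 and Cib2 stayed positive under every alternative, but that of Lhfpl5 was as low as 0.0019 without Opa1+/- mouse Het_7 and 0.0027 without WT mouse 6.

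The log2 fold change changed sign with total counts alone for Pcdh15 (-0.021), with voom for Pcdh15 (-0.13), Myo7a (0.017), Ush1c (0.065) and Loxhd1 (0.013), and with the covariate for Tmc1 (0.12), Ush1c (0.062) and Loxhd1 (0.047). Without both mice with 3-digit numbers it did so for Tmie (0.025), Pcdh15 (-0.14), Myo7a (0.014), Ush1c (0.091) and Loxhd1 (0.10). With single mice left out it ran from -0.25 to 0.24 for Tmc1, -0.13 to -0.02 for Tmie, 0.0019 to 0.16 for Lhfpl5, 0.11 to 0.30 for Cib2, -0.15 to 0.13 for Pcdh15, -0.028 to 0.23 for Cdh23, -0.21 to 0.038 for Myo7a, -0.16 to 0.16 for Ush1c and -0.27 to 0.16 for Loxhd1. The median log2 fold change of the members ran from -0.08 to 0.09 with single mice left out, and was 0.017 with voom, 0.057 with the covariate and 0.066 without both mice with 3-digit numbers. The hair cell reference ratio ran from 0.866 to 1.05, above 1 only without WT mouse 6. The causes of these changes were not tested. No paired analysis was possible because the groups share no animal number. Depth limits Tmc2 most, at 1 to 13 counts per library.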
